A study of Mus musculus with 2 samples.

Results

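Imprinted genes are expressed mainly or only from the chromosome inherited from the mother or from the father. The 36 imprinted genes described here were chosen by symbol and include H19 and the genes from Dlk1 to Dio3. All 36 had a row among the 49492 gene symbols of both deposited tables. RNA sequencing had been run on cultured Nestin+ mesenchymal stromal cells of C57BL/6 Nestin-GFP transgenic mice, taken at 7 days of age and grown to passage 10. One group was bone marrow cells in a growth medium the labels give by citation, and the other was heart cells in a medium with 20 ng/ml EGF, 20 ng/ml bFGF and 4 ng/ml cardiotrophin-1. Each tissue gave 1 library, so nothing below has a replicate check, no test was made, and tissue, medium and the single culture cannot be told apart.

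Values are RPKM (reads scaled by gene model length and by library size). The libraries held 53999963 reads for bone marrow and 64872683 for heart, as recovered from the deposited values. Intervals given with ratios are 95% counting intervals, which cover the error of counting reads in these 2 libraries and not the spread between cultures. In bulk RNA, fewer cells expressing a gene and less RNA per cell cannot be told apart. Of 8 stromal markers 7 reached 5 RPKM, and Lepr, a marker of marrow stroma, stayed under 1 RPKM in both libraries. By the 2-fold rule given below, 4 of the 7 were higher in heart and 0 in bone marrow. Over all genes at 5 RPKM or more these shares were 7.56% and 9.51%. The 4 were Col3a1 (129 RPKM in bone marrow and 1388 in heart), Cspg4 (5.62 and 23.9), Pdgfra (11.6 and 27.6) and Nes itself (1.20 and 8.74). The other 3 lay within 2-fold: Vim (962 and 521), Col1a1 (1777 and 1751) and Pdgfrb (133 and 139). The part of these stromal marker differences in the results was not tested. Cardiomyocyte markers summed to 0.976 RPKM in bone marrow and 0.804 in heart over 8 genes, and endothelial markers to 0.245 and 0.953 over 6. Haematopoietic markers summed to 3.32 and 3.70 over 9 genes, most of it Cd14, and the pan-leukocyte gene Ptprc was at 0 in heart. Of 15 proliferation genes, 14 were higher in the marrow cells by 2-fold or more, with sums of 305 RPKM there and 76.6 in heart; the part of this difference in the results below was not tested.

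Imprinted genes lie mostly in clusters. Within a cluster an imprinting control region, methylated in the germ line of one parent, sets which parental copy is read. Maternally and paternally expressed genes of a cluster often act on growth in opposite ways, and many are high in fetal mesoderm and fall after birth. C57BL/6 is an inbred strain, so both parental copies carry the same sequence and the parent of origin cannot be read from these values. "Maternally expressed" and "paternally expressed" below are the usual states of the genes in mouse, from background knowledge. For 5 of the 36 (Ube3a, Grb10, Gnas, Rasgrf1 and Inpp5f) imprinting was taken as limited to some tissues or transcripts. That choice is also from background knowledge, and others of the 36 may be limited too.

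Most of the genes were low. At least 5 RPKM in the higher library was reached by 13 of 36, 6 more reached between 1 and 5 RPKM, 16 stayed above 0 but under 1 RPKM, and Kcnq1ot1 was listed at 0 in both. Low level is not particular to them: of all 49492 symbols, 7659 reached 5 RPKM and 38137 stayed under 1 RPKM in both libraries. A gene was called higher in a library when log2((heart + 1)/(bone marrow + 1)) reached 1 or -1 and the larger of its values was 5 RPKM or more. By that rule H19, Meg3 and Snrpn were higher in heart, Asb4 and Mest were higher in bone marrow, and the other 8 of the 13 stayed short of that size, Rian only because of the pseudocount of 1. Over all 7659 genes at that level, 7.56% were higher in heart and 9.51% in bone marrow, against 23.1% (3 of 13) and 15.4% (2 of 13) here; with so few genes these shares are a description. Over the 19 members with 1 RPKM or more, the median log2 ratio was 0.20, beside -0.11 over the 11355 genes of the whole table at that level. Over genes at 5 RPKM or more in both libraries the median was -0.14, and setting it to 0 adds about 0.15 to the log2 ratio of abundant genes. Rian, with a log2 ratio of 0.99, lay just outside the rule and passed it under each scaling tried, and Meg3, at 1.70, was the gene nearest to it inside.

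**Figure D1:**
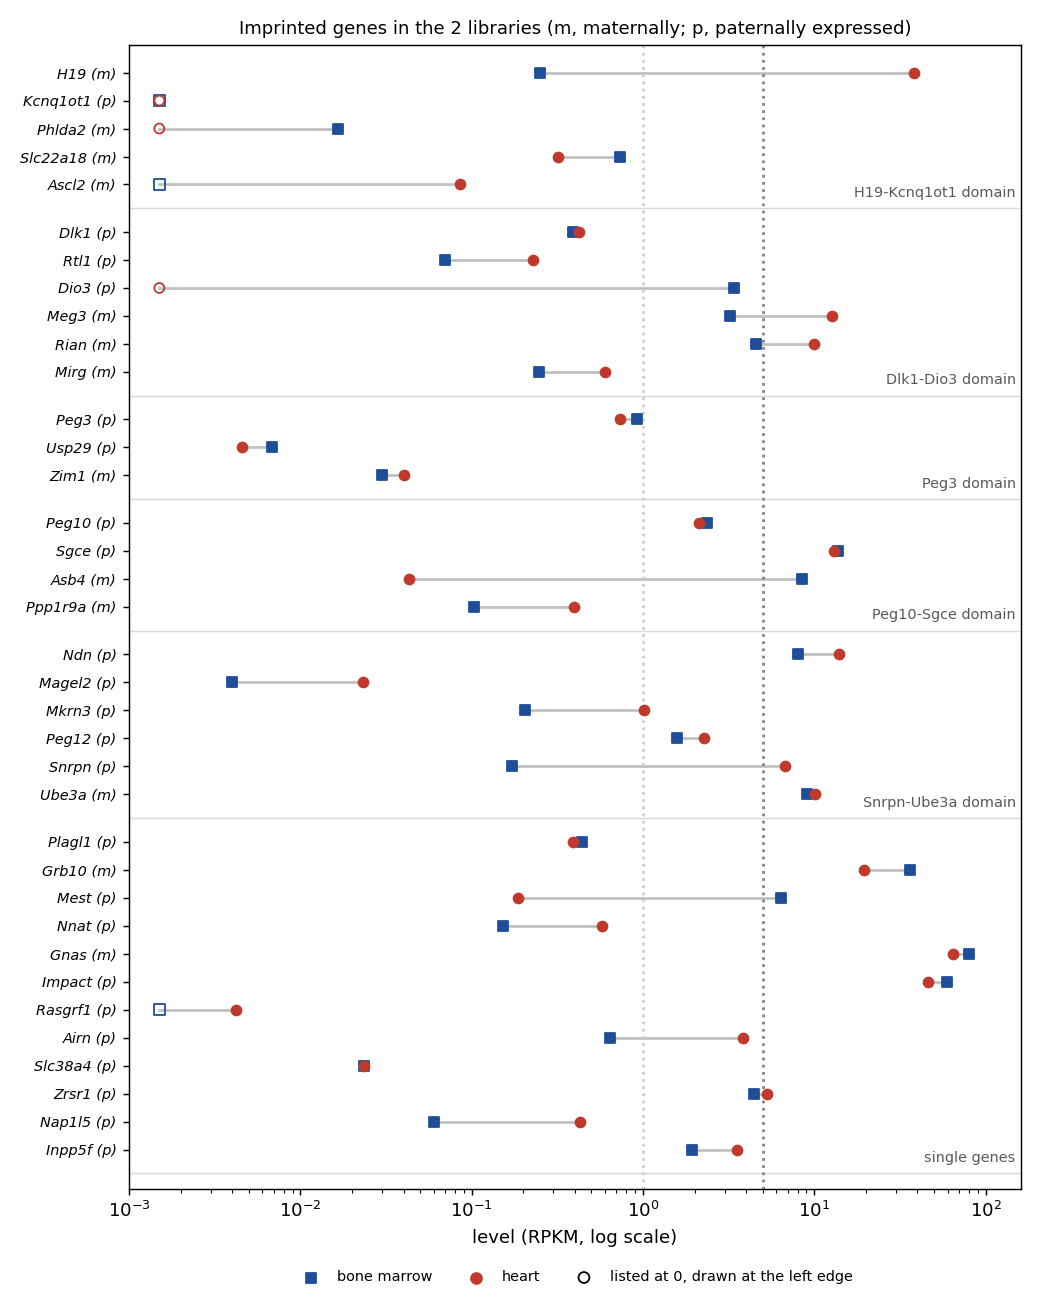
Level of each imprinted gene in bone marrow (blue squares) and heart (red circles) in RPKM on a log scale, 1 library each, grouped by imprinted domain; open symbols at the left edge are listed at 0, and dotted lines mark 1 and 5 RPKM. The widest gaps belong to H19 and Snrpn toward heart and to Asb4, Mest and Dio3 toward bone marrow.

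The H19 domain on distal chromosome 7 held the largest difference toward heart. H19 (chromosome 7, 142575529 to 142578143, minus strand, GRCm38 gene model) is a maternally expressed long noncoding RNA of fetal mesoderm and muscle. It measured 0.250 RPKM in the marrow cells and 38.2 in the heart cells (32 and 5874 reads). The heart level was 153 times the bone marrow level, with a counting interval of 108 to 224. Its log2 ratio of 4.97 ranked 24th toward heart among the 7659 genes at or above 5 RPKM. Igf2, the paternally expressed growth factor gene that shares enhancers with H19, did not follow: it measured 0.783 RPKM in the marrow cells and 0.595 in the heart cells (242 and 221 reads).

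The other members of that domain were low in both libraries, though not all of their neighbours were: Cd81, Tssc4, Nap1l4 and Osbpl5, from the list of further imprinted genes and named after their values were seen, each measured above 10 RPKM in both and lay within 2-fold. Slc22a18, a transporter gene, measured 0.730 RPKM in the marrow cells and 0.318 in the heart cells, a ratio of 2.30 toward bone marrow with an interval of 1.51 to 3.57. Phlda2, which restrains placental growth, had 1 read in the marrow cells and none in the heart cells. Ascl2, a transcription factor gene of the placenta, had 0 reads in the marrow cells against 9 from heart, too few for a usable ratio. Kcnq1ot1, the long antisense RNA that silences neighbouring genes on the paternal copy, was listed at 0 in both, and Kcnq1, which it overlaps, had 0 and 1 read. Cdkn1c, a maternally expressed cell cycle inhibitor gene silenced by Kcnq1ot1, went toward heart with 1 and 84 reads, a ratio of 69.9 with an interval of 12.2 to 2794, and stayed under 1 RPKM. H19 was thus the only member of this domain to reach 1 RPKM in either library.

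H19, Meg3 and Mest, 3 of the 5 called genes, also hold a microRNA hairpin of the RefSeq table inside the gene on the same strand, and the mature sequences are shown because the host RNAs differ so much. Sequences are from RefSeq on GRCm38.p6, 5′ to 3′, with the seed (bases 2 to 8) in capitals.
miR-675-5p (in H19): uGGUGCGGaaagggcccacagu
miR-675-3p (in H19): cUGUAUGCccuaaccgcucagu
miR-770-5p (in Meg3): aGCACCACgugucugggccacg
miR-770-3p (in Meg3): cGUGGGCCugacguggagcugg
miR-335-5p (in Mest): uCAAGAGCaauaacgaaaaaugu
miR-335-3p (in Mest): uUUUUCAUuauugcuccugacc
The 6 sequences have 6 different seeds. The libraries did not measure these small RNAs: all 2202 microRNA rows of the tables, the 22 with a RefSeq hairpin inside one of the 36 genes on its strand included, were at 0 in both libraries. Host levels are therefore the only reading of these loci here. These 22 hairpins lie in 7 of the genes, 14 of them in Mirg and 3 in Rian.

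In the Dlk1-Dio3 domain on chromosome 12 the maternally expressed noncoding RNAs all had higher values in heart, and the paternally expressed genes did not move together. Meg3 (chromosome 12, 109541001 to 109571726, plus strand), a long noncoding RNA, measured 3.20 RPKM in the marrow cells and 12.7 in the heart cells (3128 and 14880 reads). Its ratio was 3.96 with an interval of 3.81 to 4.12. Rian (109603940 to 109661716, plus strand), a host of small nucleolar RNAs, stood at 4.55 and 9.99 RPKM, a ratio of 2.20. Mirg (109729764 to 109749460, plus strand), the microRNA host at the far end, stood at 0.246 and 0.601 RPKM, a ratio of 2.45 with an interval of 1.91 to 3.17. Meg3 alone passed the 2-fold rule, since Rian fell just short of it and Mirg was under 5 RPKM. These 3 RNAs lie on 1 strand and are often described as 1 long transcription unit, so they are not independent observations.

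Among the paternally expressed genes of the same domain, Dio3 went the other way. Dio3 (110279068 to 110281097, plus strand) encodes the type 3 deiodinase, which inactivates thyroid hormone. It stood at 3.41 RPKM in bone marrow, from 374 reads, and had 0 reads in heart. Against a floor of 3 reads in heart it was 149.8-fold higher in bone marrow, and the counting interval of the ratio starts at 121.2 with no upper limit; its level is under 5 RPKM, so it is outside the rule above. Dlk1, which encodes a Notch ligand-like inhibitor of adipocyte formation, was low and close in both, at 0.393 and 0.425 RPKM, with an interval of the ratio of 0.847 to 1.38. Rtl1, a retrotransposon-derived gene needed in the placenta, stood at 0.0699 and 0.228 RPKM from 24 and 94 reads. Begain, a gene beside Dlk1 named here after its values were seen, had 17 and 349 reads and stood at 0.0714 and 1.22 RPKM.

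**Figure D2:**
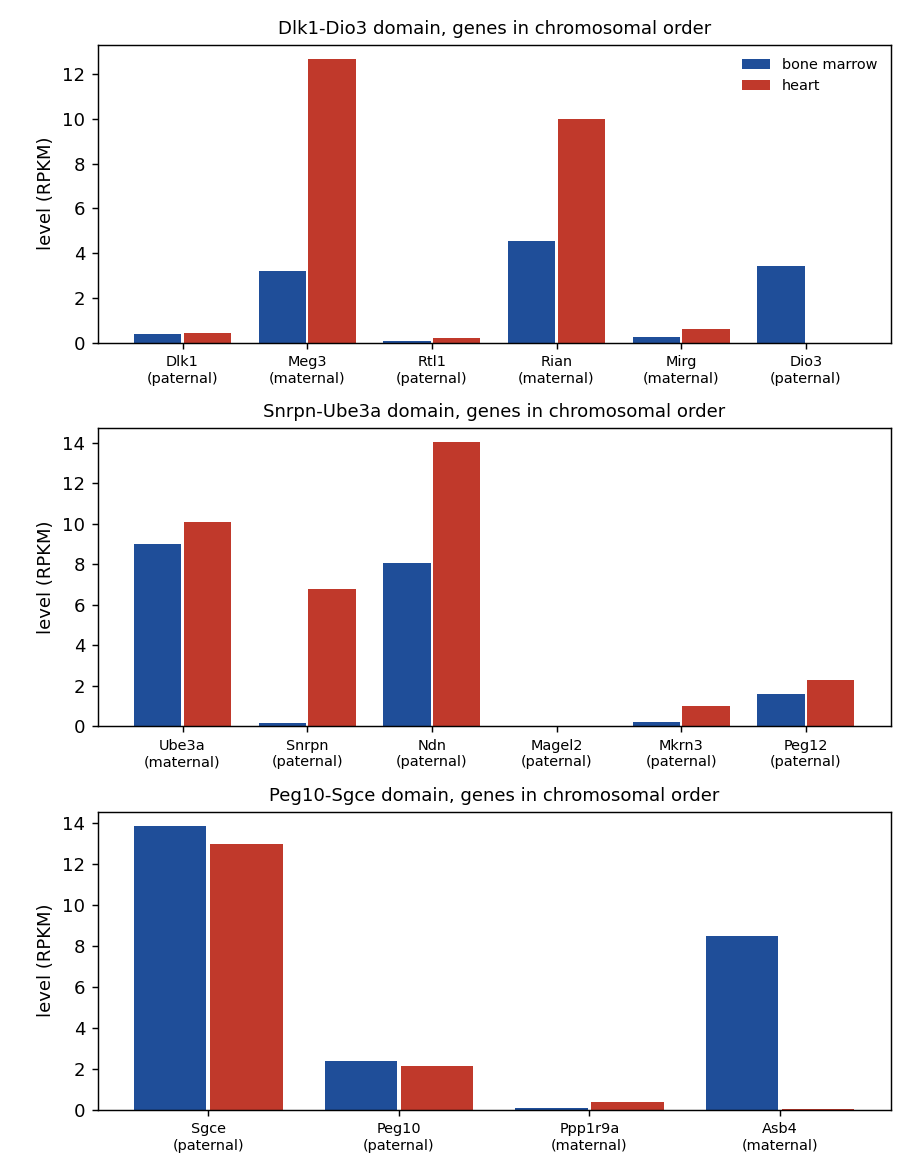
Level in RPKM (bars from 0, 1 library each, no error bar) of the genes of 3 imprinted domains in chromosomal order, bone marrow blue and heart red, with the usual expressed parental copy under each name. Meg3 and Rian were higher in heart while Dio3 had reads in bone marrow only, Snrpn stood at 0.172 and 6.77 RPKM, and Asb4 was the one gene of the Peg10-Sgce domain with a wide gap.

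All 6 members in the Snrpn-Ube3a domain on chromosome 7 had higher values in heart, but for Magel2 the counting interval of the ratio (0.749 to 263) includes 1. Snrpn (59982495 to 60140219, minus strand) encodes the splicing protein SmN and is usually high in brain and heart. It measured 0.172 RPKM in the marrow cells and 6.77 in the heart cells (20 and 948 reads), a ratio of 39.5 with an interval of 25.4 to 64.9. Its log2 ratio was 2.73, and its level is uncertain where reads were shared with its close relative Snrpb. Snhg14, the long RNA that starts from the Snrpn region and runs antisense to Ube3a, was named after its values were seen: it had 10 reads in the marrow cells against 345 from heart. Ube3a (59228750 to 59311536, plus strand), the ubiquitin ligase gene of Angelman syndrome, was close in both, at 9.02 and 10.1 RPKM.

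Of the intronless genes of that domain, Ndn was the most abundant. Ndn, which encodes the growth suppressor necdin, measured 8.08 RPKM in the marrow cells and 14.0 in the heart cells, a ratio of 1.74 with an interval of 1.64 to 1.84. Mkrn3, a ring finger protein gene that acts on the timing of puberty, stood at 0.204 and 1.02 RPKM, a ratio of 4.99. Peg12, a gene of the Frat family of GSK3-binding proteins, stood at 1.59 and 2.28 RPKM, and its value is uncertain where reads were shared with those relatives. Magel2, a MAGE family gene beside Ndn, had 1 read in the marrow cells against 7 from heart. All 5 genes of this domain at or above 1 RPKM had a positive log2 ratio, with a median of 0.73, but only Snrpn reached 2-fold at 5 RPKM. Over all 11355 genes at or above 1 RPKM, 4764 had a positive log2 ratio, and the median was -0.11.

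The Peg10-Sgce domain on chromosome 6 held the largest difference toward bone marrow on the log2 scale with the pseudocount. On the plain ratio Asb4 cannot be ranked against Dio3, because Dio3 had no reads in heart. Asb4 (5383386 to 5433022, plus strand), a maternally expressed gene for a substrate receptor of ubiquitin ligases, measured 8.45 RPKM in the marrow cells and 0.0431 in the heart cells (1795 and 11 reads). The bone marrow level was 196 times the heart level, with an interval of 109 to 393, and its log2 ratio of -3.18 ranked 76th toward bone marrow. Sgce, which encodes epsilon-sarcoglycan, stood at 13.8 and 12.98 RPKM. Peg10, a retrotransposon-derived gene that shares its promoter region with Sgce, stood at 2.36 and 2.12 RPKM. This pair, which starts back to back, thus had nearly equal ratios of 0.937 and 0.898. Ppp1r9a, the neurabin gene, lay between them and Asb4 and went toward heart at low level, with 81 and 373 reads and a ratio of 3.83.

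Tfpi2 and Dlx5, neighbours of this domain on chromosome 6 from the list of further imprinted genes, also differed. Other neighbours from that list lay within 2-fold: Casd1 (7.22 RPKM in bone marrow and 13.2 in heart), Pon2 (8.95 and 8.03) and Pon3 (9.73 and 12.6). Tfpi2, a protease inhibitor gene imprinted in the placenta, had 2 reads in the marrow cells against 2085 from heart, a ratio of 868 with an interval of 239.9 to 7170.2, and stood at 18.4 RPKM in heart. Dlx5, an osteoblast transcription factor gene, measured 16.7 RPKM in the marrow cells and 7.64 in the heart cells, for a log2 ratio of -1.03.

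The Peg3 domain was low in both libraries. Peg3, a zinc finger protein gene that acts in apoptosis and maternal behaviour, measured 0.924 RPKM in the marrow cells and 0.733 in the heart cells (665 and 634 reads). Usp29 and Zim1 had 21 reads or fewer in each library. Usp29 was at 0.00681 and 0.00453 RPKM, and Zim1 at 0.0298 and 0.0400, with intervals of the ratio that include 1.

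Among the 12 genes that stand alone or in other clusters, Mest had the widest difference of those at 5 RPKM. Mest (chromosome 6, 30723547 to 30748465, plus strand), a paternally expressed gene for an alpha/beta hydrolase of mesoderm, measured 6.41 RPKM in the marrow cells and 0.188 in the heart cells (1366 and 48 reads). The bone marrow level was 34.2 times the heart level, with an interval from 25.6 to 46.6, for a log2 ratio of -2.64. Copg2, a coat protein gene that overlaps the end of Mest on the other strand by 912 bases, was much closer, at 8.98 and 6.31 RPKM. The gap between the libraries at Mest was therefore not seen at the overlapping gene.

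Airn and Igf2r on chromosome 17 both had higher values in heart. Airn (12741311 to 12860122, plus strand) is the paternally expressed antisense RNA that silences Igf2r, which encodes the clearing receptor for IGF2 and is maternally expressed. Airn measured 0.641 RPKM in the marrow cells and 3.82 in the heart cells, a ratio of 5.96 with an interval of 4.93 to 7.25. Igf2r stood at 24.9 and 74.1 RPKM, a ratio of 2.98 with an interval of 2.92 to 3.04. Their gene models overlap by 28354 bases on opposite strands, and whether counting used strand is not given in the sources used here; reads of Igf2r and Airn may therefore be mixed. Counted at 1 RPKM in place of 5, Airn joins the genes higher in heart and Dio3 those higher in bone marrow, 4 and 3 of 19, against 7.78% and 9.26% of 11355 genes.

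Gnas, Impact and Grb10 were the most abundant of the 36 in bone marrow, and all 3 lay within 2-fold. In heart H19, at 38.2 RPKM, stood above Grb10. Gnas, which encodes the alpha subunit of the stimulatory G protein, measured 79.99 RPKM in the marrow cells and 64.7 in the heart cells. Impact, an inhibitor of the amino acid sensor kinase GCN2, stood at 59.2 and 46.0 RPKM. Grb10, an adaptor that restrains insulin and IGF1 receptors, stood at 36.4 and 19.6 RPKM, a log2 ratio of -0.86 with an interval of the raw ratio of 0.526 to 0.551. Zrsr1, a splicing factor gene copied from an X-linked parent and lying in an intron of Commd1, stood at 4.47 and 5.28 RPKM; Commd1 stood at 6.47 and 4.58. Inpp5f, a phosphoinositide phosphatase gene, stood at 1.94 and 3.56 RPKM, a ratio of 1.83.

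The remaining single genes stayed under 1 RPKM. Nnat, which encodes the small membrane protein neuronatin and lies in an intron of Blcap, had 15 and 68 reads, while Blcap measured 12.0 RPKM in the marrow cells and 9.83 in the heart cells. Nap1l5, a nucleosome assembly protein relative inside Herc3, had 6 and 51 reads, a ratio of 7.08, while Herc3 went toward bone marrow at 2.93 and 0.791 RPKM. Both of these small paternally expressed genes therefore had ratios opposite in direction to the gene around them. Plagl1, a zinc finger gene that acts on other imprinted genes, stood at 0.441 and 0.392 RPKM. Slc38a4, an amino acid transporter gene, had 5 and 6 reads, and Rasgrf1, a Ras exchange factor gene of brain, had 0 and 3.

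**Figure D3:**
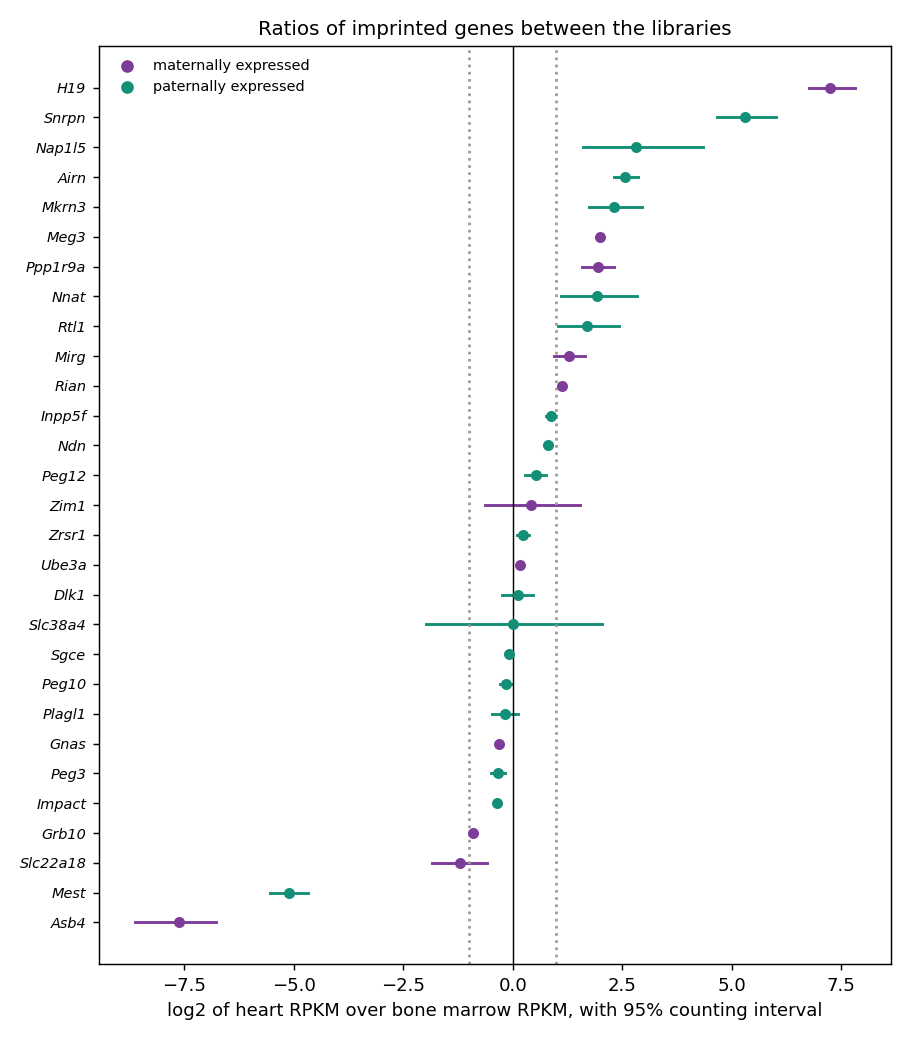
Log2 of heart RPKM over bone marrow RPKM with no pseudocount for the 29 genes with reads in both libraries and at least 10 reads in all; bars are 95% counting intervals, dotted lines mark a ratio of 2, and colours mark the usual expressed parental copy. H19 and Snrpn lie far to the right and Asb4 and Mest far to the left, and each end holds a maternally and a paternally expressed gene.

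On the ratio itself, more of these genes were higher in heart than in bone marrow. Among genes whose larger read number was at least 50, a rule chosen after the values were seen, 11 of 28 genes were at least 2 times as high in heart and 4 were at least 2 times as high in bone marrow. The 11 were H19, Meg3, Rian, Mirg, Rtl1, Ppp1r9a, Snrpn, Mkrn3, Nnat, Airn and Nap1l5, and the 4 were Asb4, Mest, Dio3 and Slc22a18. Over the whole table, 9021 genes had that many reads, counting only genes with whole reads at gene model length. Of them, 14.1% and 14.0% passed in each direction, against 39.3% and 14.3% here. The shares here also count genes with reads from a solved length or the smallest whole pair. Among the 11, these were H19, Rtl1, Mirg, Airn and Rian, while the 4 all had reads from gene model length. The inclusion rules differ, so these shares cannot be compared directly. Of the 11, 6 (Mirg, Rtl1, Ppp1r9a, Nnat, Nap1l5 and Mkrn3) were at or under about 1 RPKM in heart, so the larger share rests mostly on genes of low level.

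Both parental groups held called genes in each direction. Of the 13 maternally expressed genes, 7 reached 5 RPKM, H19 and Meg3 were higher in heart, Asb4 was higher in bone marrow and 4 were neither. Of the 23 paternally expressed genes, 6 reached 5 RPKM, Snrpn was higher in heart, Mest in bone marrow and 4 were neither. The shares higher in heart and in bone marrow were 28.6% and 14.3% for the maternally expressed genes and 16.7% each for the paternally expressed. Over all genes they were 7.56% and 9.51%, and with so few genes the counts are a description. At 1 RPKM or more, the median log2 ratio was 0.15 for 7 maternally expressed genes and 0.27 for 12 paternally expressed genes. Without the 5 genes taken as limited in imprinting the medians were 1.34 and 0.20. The first rests on H19, Meg3, Rian and Asb4 alone. It lies between Meg3 (1.70) and Rian (0.99), which are not independent, so it is no contrast between the parental groups. By product, 4 of the 6 noncoding RNAs were at or above 1 RPKM. All 4 (H19, Meg3, Rian and Airn) had a positive log2 ratio, with a median of 1.63. Meg3 and Rian are not independent and reads of Airn may be mixed with those of Igf2r, so these are not 4 separate observations. Over all 11355 genes at that level, 4764 were positive and 6591 negative, with a median of -0.11. The 15 protein-coding genes at that level had a median of -0.09, with 7 positive and 8 negative; scaled to the median ratio, Sgce turns from negative to positive.

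**Figure D4:**
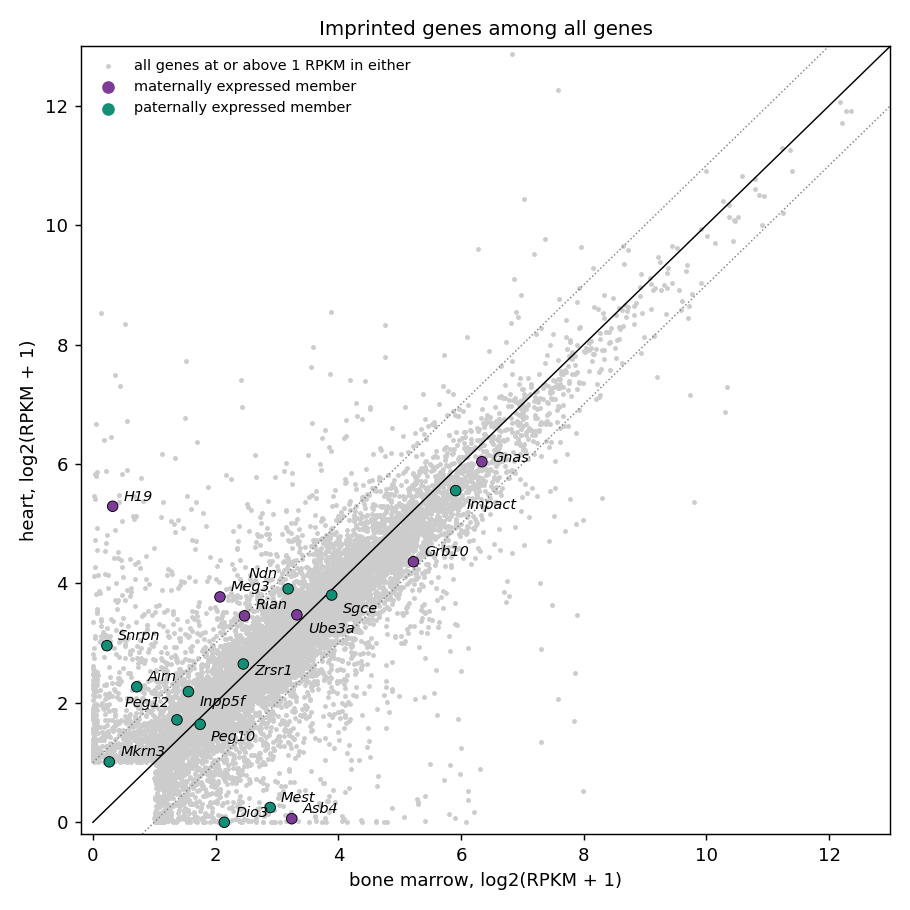
Level of every gene at or above 1 RPKM in either library, as log2(RPKM + 1), bone marrow on the x axis and heart on the y axis; imprinted genes are named and coloured by the usual expressed parental copy, the solid line marks equal levels and dotted lines 2-fold. H19, Snrpn, Meg3 and Airn lie above the upper dotted line, Asb4, Mest and Dio3 lie below the lower one, and Gnas, Impact, Sgce and Ube3a lie near the diagonal.

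A list of 44 other imprinted genes held 3 called genes. Of the 19 at or above 5 RPKM, 2 (Igf2r and Tfpi2) were higher in heart, 1 (Dlx5) was higher in bone marrow and 16 were neither, or 10.5% and 5.26%, beside 7.56% and 9.51% over all genes. Their median was -0.03 over the 23 with 1 RPKM or more. Dlx5 lay just past 2-fold and was no longer called with a pseudocount of 5 or under any of the 3 scalings.

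Genes that act on imprints, the Tet genes that oxidise methylated cytosine included, were called in both directions. Of 22 such genes, 13 reached 5 RPKM, 2 were higher in the heart cells and 2 in the marrow cells, and 9 lay within 2-fold. That is 15.4% in each direction, beside 7.56% and 9.51% over all genes, and with so few genes it is a description. The median was 0.06 over 15. Dnmt3a, which sets new DNA methylation, measured 2.01 RPKM in the marrow cells and 6.56 in the heart cells, and Tet3, which oxidises methylated cytosine, stood at 3.14 and 8.80. Uhrf1, which brings the maintenance methyltransferase to newly copied DNA, measured 17.0 RPKM in the marrow cells and 2.22 in the heart cells, and Ezh2, a histone methyltransferase gene, stood at 5.65 and 1.80. With a pseudocount of 5, Dnmt3a, Tet3 and Ezh2 were no longer called and Uhrf1 still was. Uhrf1 and Ezh2 are also known as genes of dividing cells, and the proliferation genes differed in the same direction. The part of that difference in the values of Uhrf1 and Ezh2 was not tested. Dnmt1, the maintenance methyltransferase itself, was closer, at 13.9 and 9.56 RPKM. Zfp57, which binds the methylated imprinting control regions, stood at 1.14 and 3.44 RPKM, under the floor of 5, a ratio of 3.02. Its partner Trim28 and the insulator protein gene Ctcf were close in both, with log2 ratios of -0.07 and -0.08.

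Promoters of the called genes are shown for their CG content, since methylation of CG pairs at or near promoters is the mark that imprints carry. RefSeq gave promoters (250 bases before to 50 after a start, GRCm38.p6) for 31 of the 36 genes; H19, Rtl1, Peg10, Sgce and Impact had none. Where a gene had several starts, the one with the most CG pairs was taken. The 4 sequences read 5′ to 3′ on the strand of the gene, with CG in capitals.
Meg3 (chr12:109540746-109541045, plus strand): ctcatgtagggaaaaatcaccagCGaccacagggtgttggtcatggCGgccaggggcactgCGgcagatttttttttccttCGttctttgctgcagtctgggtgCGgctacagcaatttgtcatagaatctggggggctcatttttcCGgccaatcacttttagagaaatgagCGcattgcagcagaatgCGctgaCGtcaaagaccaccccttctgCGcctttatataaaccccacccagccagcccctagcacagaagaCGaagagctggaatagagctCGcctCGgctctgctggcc
Snrpn (chr7:60005150-60005449, minus strand): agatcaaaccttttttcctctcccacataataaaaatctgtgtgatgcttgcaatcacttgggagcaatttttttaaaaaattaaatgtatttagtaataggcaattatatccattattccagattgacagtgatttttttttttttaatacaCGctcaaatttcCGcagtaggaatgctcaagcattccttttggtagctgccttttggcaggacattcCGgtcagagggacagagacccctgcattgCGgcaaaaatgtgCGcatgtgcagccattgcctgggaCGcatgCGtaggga
Mest (chr6:30737800-30738099, plus strand): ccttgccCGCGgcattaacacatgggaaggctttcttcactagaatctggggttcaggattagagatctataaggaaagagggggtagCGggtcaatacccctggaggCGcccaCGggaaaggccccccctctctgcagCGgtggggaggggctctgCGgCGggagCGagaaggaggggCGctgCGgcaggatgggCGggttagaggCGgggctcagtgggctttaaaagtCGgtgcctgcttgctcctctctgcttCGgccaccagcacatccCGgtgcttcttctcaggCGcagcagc
Asb4 (chr6:5390160-5390459, plus strand): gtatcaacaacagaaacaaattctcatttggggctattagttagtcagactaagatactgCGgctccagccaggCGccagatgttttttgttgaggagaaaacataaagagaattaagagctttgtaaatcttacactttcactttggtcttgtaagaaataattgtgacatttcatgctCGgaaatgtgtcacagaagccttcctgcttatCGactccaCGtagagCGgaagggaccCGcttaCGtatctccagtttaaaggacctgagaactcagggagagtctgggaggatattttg
The Mest promoter held 17 CG pairs, Meg3 13, Asb4 8 and Snrpn 7. The called genes thus spanned the lower and middle part of the range over the 31 promoters, from 0 in Rian to 48 in Ppp1r9a. The median over the 31 was 15, beside 8 over the promoters of all 27025 genes in the RefSeq table, which include noncoding genes. The letters TGCCGC, the core that ZFP57 binds when methylated, occurred on either strand in 8 of the 31 (25.8%), Meg3, Snrpn and Mest among them, and in 12.2% of all. TGCCGC itself holds a CG, and the 31 windows were richer in CG, so these shares cannot be told apart from CG content. The letters GCCATNTT, a form of the YY1 motif, occurred in 3 of the 31 (9.68%) and in 6.26% of all. A match is a description of the letters in this window and not evidence of binding, and methylation was not measured here.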

How the data were processed

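Each culture gave 1 Illumina library, made from 1 ug of total RNA per the labels' protocols. Values are RPKM as deposited, 1 column per file per the file headers, beside gene name, chromosome and region (49585 rows). The sources used here do not give aligner, counter or strandedness. The submitters' processing notes name mm8; however, 45149 rows (91.1%) carry coordinates of GENCODE M21 genes on GRCm38, the build used for positions here. A repeated symbol kept its most abundant row, which left 49492 symbols.

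Multiplying RPKM by exon-union length gave whole reads at the totals reported, in both libraries within 0.02 reads for 86.2% of 14255 rows with values above 0 in each. This held for 24 of the 36 genes. For 8 more, a length within 20% of the gene model was solved from both values. For Rian, Usp29 and Ube3a (3 genes) the smallest whole pair was used, which gives the widest interval, and Kcnq1ot1 had none. Ratio intervals are exact conditional (Clopper-Pearson) 95% intervals. Reads lack molecular identifiers, so the intervals describe counting error alone. Folds against 0 reads use a floor of 3 reads in that library.

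No p-value was computed, as each tissue has 1 library. The pseudocount of 1 in log2 ratios understates differences of low genes. The 36 genes and the lists were chosen with earlier results of these data known. Named were all 36, the called genes of the further lists and fixed neighbours. Snhg14, Begain, Cd81, Tssc4, Nap1l4, Osbpl5, Casd1, Pon2, Pon3 and the stromal markers given with values were added after their values were seen. Alternatives were pseudocounts of 0.1 and 5, floors of 1 and 20 RPKM and none, a 4-fold rule, 3 scalings and summed rows. Scripts ran in Python 3.11.15 with pandas 2.3.3, numpy 2.4.6, matplotlib 3.10.9 and scipy 1.17.1, after tests on simulated data.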

Additional observations from a re-analysis of the deposited data

How the results depend on the processing

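No paired analysis was possible because each tissue has 1 library, so no replicate was left out either. The 5 called genes were the same with a pseudocount of 5 and with summed rows. Rian joined the heart genes with a pseudocount of 0.1 and under each of the 3 scalings. No called gene changed direction under the pseudocounts, scalings or summed rows. Medians below are in the order all 36 genes, maternally expressed, paternally expressed.

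Those medians were 0.24, 0.16 and 0.37 with a pseudocount of 0.1 and 0.12, 0.11 and 0.13 with 5. They were 0.33, 0.29 and 0.39 scaled to the median ratio, 0.27, 0.23 and 0.34 scaled to the upper quartile, and 0.26, 0.21 and 0.33 scaled by a trimmed mean. With a floor of 20 RPKM they were -0.33, -0.30 and -0.36, the opposite sign, since that floor keeps few genes, and with no filter on low values 0.030, 0.12 and 0.027. Without genes taken as limited in imprinting the medians of the maternally and paternally expressed genes were 1.34 and 0.20. The value of 1.34 rests on H19, Meg3, Rian and Asb4 alone.

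With a floor of 1 RPKM or no filter, 2 paternally expressed genes were called in heart and 2 in bone marrow. At 20 RPKM, H19 alone was called in heart (1 gene, maternally expressed) and 0 in bone marrow, with 0 paternally expressed genes in either direction and 0 maternally expressed genes in bone marrow. At 4-fold, 1 maternally expressed gene (H19) was called in heart. The RPKM ratio of 2 with 50 reads, chosen after seeing the data, gave 11 in heart and 4 in bone marrow.

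Of the 44 other imprinted genes, 0 were called in bone marrow with a pseudocount of 5, under each scaling, at 20 RPKM and at 4-fold, and 2 at 1 RPKM or with no filter; at 20 RPKM and at 4-fold 1 was called in heart. Their median was 0.11, 0.054 and 0.040 under the 3 scalings in the order above, 0.23 at 20 RPKM and 0.00 with no filter. Of the genes that act on imprints, 0 were called in heart and 1 in bone marrow with a pseudocount of 5 and at 4-fold, and 0 in either direction at 20 RPKM. Their median was 0.065 with a pseudocount of 0.1, 0.037 with 5, 0.19, 0.13 and 0.12 under the 3 scalings, and 0.018 with no filter.

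Genes with fewer than about 10 reads in both libraries (Phlda2, Ascl2, Usp29, Magel2, Slc38a4 and Rasgrf1) give no usable ratio at this depth.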
